A study of Rattus norvegicus with 12 samples.

Results

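The genes described here mark macrophages and lymphocytes in the rat ovary. They were taken from a list of 40 symbols by matching each symbol to the gene names of the deposited expression table, with 1 line kept per gene identifier, and 38 of the 40 were found among the 19730 genes of the table. The 38 comprise 25 myeloid genes, 6 pan-leukocyte genes carried by most white blood cells, and 7 genes of T and B cells. Marco and Cd79a were not analysed here. All rats were female wild type Sprague Dawley rats, examined in post natal week 15, and ovarian RNA was sequenced from 4 rats in each of 3 groups. The control group was untreated and was fed standard pellets. The PCOS group, a model of polycystic ovary syndrome, received letrozole, an inhibitor of the aromatase that makes estrogen from androgen, together with a high-fat diet (HFD) for 30 days. The PCOS-MV group received the same letrozole and HFD and then mogroside V (MV), a sweet triterpene glycoside of monk fruit, for 30 days. By the paper's methods the MV material was a preparation of the fruit that consisted only in part of mogroside V. Rats counted as PCOS models only if vaginal smears before the division into PCOS and PCOS-MV groups showed them to stay in metestrus and diestrus, and the stage of the cycle on the day the ovaries were taken was not used here.

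Macrophages are common immune cells of the ovary. They lie in the stroma, the theca and the corpus luteum, take up dying granulosa and luteal cells, and need signals through the CSF1 receptor (Csf1r) to survive. They bind antibody-coated material through Fc receptors and dead cells through complement C1q, and digest both in lysosomes that carry CD68. T cells are recognised by the CD3 chains of their antigen receptor and B cells by the CD79 chains of theirs. In rats the CD4 protein is carried by monocytes and macrophages as well as by helper T cells, so Cd4 is listed with the lymphocyte genes but is not specific to them.

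Transcription in myeloid cells depends on PU.1, the ETS-family factor encoded by the member Spi1, which binds DNA around a GAGGAA core. RefSeq promoters of the GRCr8 assembly were matched for 25 of the 38 genes, and the 250 bases before the start of transcription were searched on both strands for GAGGAA and for the longer GAGGAAGT, which contains it. GAGGAA lay in 14 of the 25 member promoters, 56.0%, and in 23.3% of the 33469 promoters of the assembly's table. GAGGAAGT lay in 2 of the 25, 8.0%, and in 2.04% of all promoters. The matches were not confined to myeloid genes, since Cd2 and Cd3e of T cells held GAGGAA, whereas the myeloid genes Irf8, C1qa and Cd163 did not. A match in these letters is a description of the sequence and shows no binding. The 4 promoters below, read 5′ to 3′ on the strand of the gene, belong to myeloid genes, of which Csf1r and Adgre1 passed the test in both comparisons and Cd68 and C1qb after MV, and the capitals mark GAGGAA or, on the opposite strand, TTCCTC. The Csf1r promoter lies at chr18:56834129-56834378 on the plus strand, that of Adgre1 at chr9:2329190-2329439 on the plus strand, that of Cd68 at chr10:54882442-54882691 on the minus strand and that of C1qb at chr5:154407828-154408077 on the minus strand.
Csf1r: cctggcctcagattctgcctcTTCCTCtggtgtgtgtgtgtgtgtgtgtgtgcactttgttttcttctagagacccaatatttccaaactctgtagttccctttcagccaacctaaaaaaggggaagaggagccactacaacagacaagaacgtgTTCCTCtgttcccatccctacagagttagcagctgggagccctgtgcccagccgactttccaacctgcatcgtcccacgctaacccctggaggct
Adgre1: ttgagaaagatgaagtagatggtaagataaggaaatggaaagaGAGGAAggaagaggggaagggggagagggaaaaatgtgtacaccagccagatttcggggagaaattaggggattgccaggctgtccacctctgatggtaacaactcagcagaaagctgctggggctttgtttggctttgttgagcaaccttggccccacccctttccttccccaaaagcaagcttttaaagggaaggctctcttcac
Cd68: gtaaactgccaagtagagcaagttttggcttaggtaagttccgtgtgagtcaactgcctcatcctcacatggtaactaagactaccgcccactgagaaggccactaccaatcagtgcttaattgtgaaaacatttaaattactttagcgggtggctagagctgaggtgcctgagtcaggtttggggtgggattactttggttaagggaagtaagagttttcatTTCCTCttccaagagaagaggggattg
C1qb: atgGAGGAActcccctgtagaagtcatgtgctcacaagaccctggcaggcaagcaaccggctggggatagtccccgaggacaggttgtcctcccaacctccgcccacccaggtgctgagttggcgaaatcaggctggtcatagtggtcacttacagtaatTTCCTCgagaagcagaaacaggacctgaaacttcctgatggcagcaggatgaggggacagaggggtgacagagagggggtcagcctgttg
Csf1r and C1qb each held 2 copies, and Adgre1 and Cd68 each held 1. The Cd68 copy was the nearest to the start, 27 to 22 bases before it. Both GAGGAAGT matches, on the opposite strand, lay close to the start, in cathepsin S (Ctss) 17 to 10 bases before it and in the tetraspanin gene Cd53 46 to 39 bases before it, and their surroundings are shown with the 8 letters in capitals.
Ctss: atgaaagttcACTTCCTCgttgtggat
Cd53: actcagtctcACTTCCTCactcttctca

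Expression is given as FPKM, fragment counts scaled to the length of the gene and the size of the library, which allows levels of different genes to be compared per length. Log2 changes are differences of group means of log2(FPKM + 1), which understate the change of genes at low values. Genes averaging 1 FPKM or more over the 12 libraries were tested with limma, 2 groups at a time, and a gene is said to rise or fall where its p-value, Benjamini-Hochberg adjusted over the 13430 genes tested, was under 0.05. In a bulk tissue, fewer cells of a type and less RNA per cell cannot be told apart. Read depth is unknown from FPKM. The PCOS libraries enter both main comparisons, so their changes are not independent of each other.

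Pearson's r of log2(FPKM + 1) across all genes was 0.954 to 0.987 between control libraries, 0.986 to 0.989 between PCOS libraries and 0.977 to 0.989 between PCOS-MV libraries. Control replicate 3 stood apart: its 5 measured genes of ciliated oviduct epithelium, of 7 listed, summed to 24.2 FPKM against at most 5.33 in every other library, its further B and plasma cell genes summed to 102.4 against at most 15.6 (95.9 of it Jchain), and its neutrophil list to 174.4 against at most 32.4 (171.5 of it Lcn2, also made by epithelia). Its part in the results was not tested beyond leaving the library out. Without it, 4 members instead of 6 passed the test in PCOS vs Control, and Adgre1, Csf1r, Cd4 and Fcgr2b were those that still did. Without PCOS replicate 2 the number was 3.

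Among the 38 genes, Lyz2, the lysozyme of macrophages, was the most abundant, at 139.8 to 258.2 FPKM in the 12 libraries; lysozyme genes are alike in sequence, so its reads could have been split between copies. The C1q chains came next, with means over the 12 libraries of 51.3 FPKM for C1qc, 47.8 for C1qa and 35.8 for C1qb, followed by Lcp1 at 27.4, Csf1r at 26.8, Ctss at 25.7 and Cd4 at 25.7. The ranges over libraries of these last 4 genes overlapped. The CD3 chains were far lower, with means of 2.27 for Cd3e, 1.86 for Cd3g and 1.44 for Cd3d, and Cd8a, a chain of the coreceptor of killer T cells, averaged 4.22 FPKM. Cd52, a small surface glycoprotein of leukocytes, and the B cell receptor chain Cd79b were at or near 0 in all libraries, at most 0.447 and 0.416 FPKM, and were not tested. The remaining 36 genes were tested.

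In PCOS ovaries as compared with controls, the receptor gene Csf1r and the macrophage surface gene Adgre1 were higher, whereas the inhibitory Fc receptor gene Fcgr2b was lower. Cd4, the T cell adhesion gene Cd2 and the transcription factor gene Irf8 were also higher. Thus 6 of the 36 tested genes, 16.7%, passed the test, 5 higher and 1 lower, beside 27.4% of all genes tested (11.9% higher and 15.6% lower). The share of leukocyte genes that changed was not above that of the ovary's genes at large. The median log2 change of the 36 was -0.03, and that of all genes was -0.03. The split by direction rested on Control replicate 4: without it 8 members passed, 4 higher and 4 lower.

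After MV, as compared with PCOS ovaries, Csf1r, Adgre1 and Cd4 were lower, whereas Cd68, Fcgr2b, C1qb, C1qc, the scavenger receptor gene Msr1 and Spi1 were higher. Here 9 of the 36 genes, 25.0%, passed the test, 6 higher and 3 lower, beside 25.7% of all genes (14.3% higher and 11.4% lower). Their median log2 change was 0.10, and that of all genes was 0.03. The count depended on single libraries: 14 members passed without PCOS-MV replicate 1, 4 without PCOS replicate 1 or without PCOS replicate 4, and 5 without PCOS replicate 3. So did the split by direction, which was 11 higher and 3 lower without PCOS-MV replicate 1 and 3 higher and 4 lower without PCOS-MV replicate 2.

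**Figure D1:**
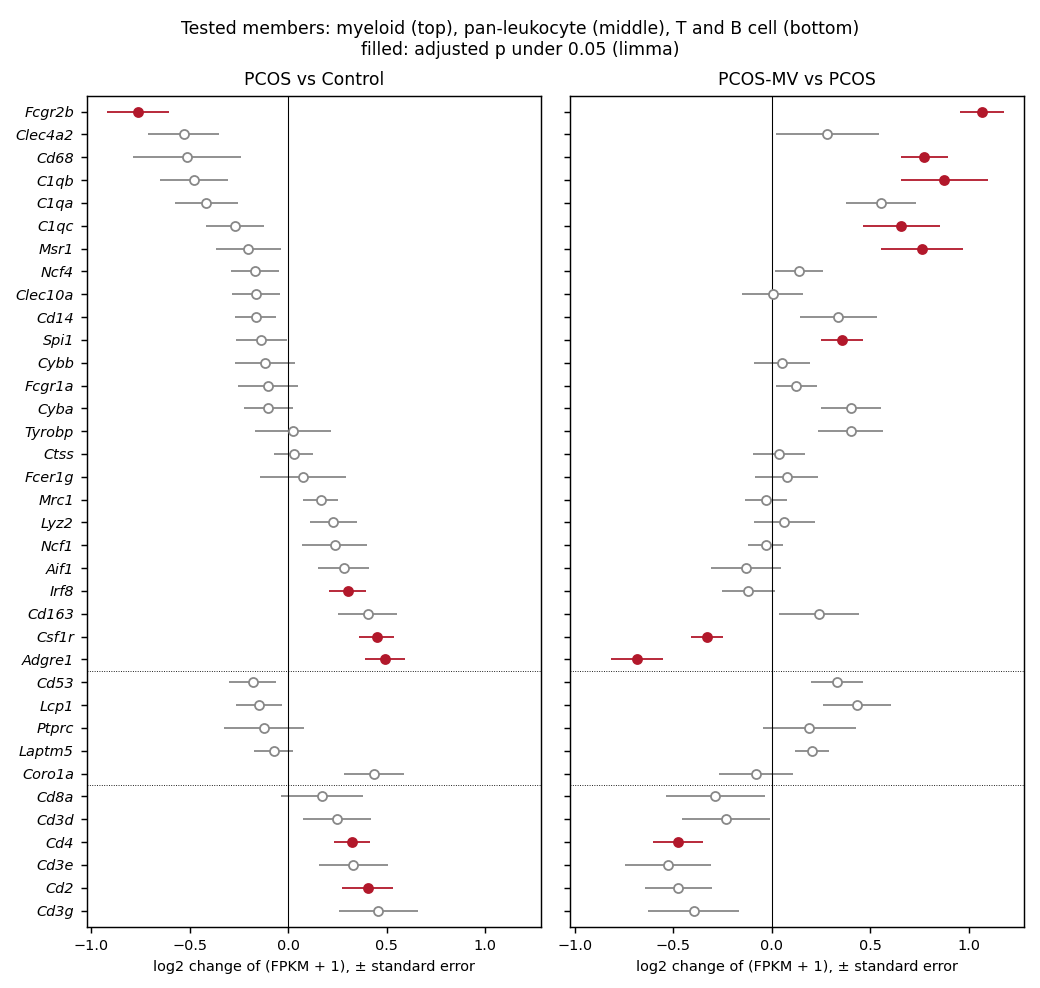
Log2 change of (FPKM + 1) with its standard error for the 36 tested genes in PCOS vs Control (left) and PCOS-MV vs PCOS (right), myeloid genes at the top, pan-leukocyte genes in the middle and T and B cell genes at the bottom; filled points have an adjusted p under 0.05 in limma. The myeloid genes spread from Fcgr2b at -0.76 to Adgre1 at 0.49 in the left panel. All 6 genes at the bottom lie right of 0 on the left and left of 0 on the right. None of these 6 is a B cell gene.

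The growth factor receptor Csf1r, through which macrophages receive CSF1, was measured at 26.0, 23.8, 23.4 and 19.5 FPKM in control replicates 1 to 4, at 31.1, 31.2, 31.6 and 33.5 in PCOS replicates 1 to 4 and at 27.3, 27.2, 21.9 and 24.6 in PCOS-MV replicates 1 to 4. The PCOS libraries were all above those of both other groups and lay close together. In the coordinates of the deposited table, whose build the sources used here do not give, Csf1r spans 56414488 to 56458300 on the plus strand of chromosome 18. The rise in PCOS was 0.45 on the log2 scale (SE 0.089, adjusted p = 0.00646, limma) and 1.38-fold in mean FPKM. The difference after MV was -0.33 (SE 0.082, adjusted p = 0.0196, limma), which no longer passed when PCOS replicate 4 was left out (adjusted p = 0.0607).

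Adgre1 encodes an adhesion receptor, a surface marker of tissue macrophages. In the deposited table its gene lies on the minus strand of chromosome 9 (9431860 to 9585865). The GRCr8 promoter given above lies on the plus strand at other coordinates, and the reason was not examined. Adgre1 stood at 6.86, 6.91, 8.22 and 6.75 FPKM in the controls, at 11.04, 12.1, 9.78 and 9.23 in the PCOS libraries and at 6.89, 7.12, 6.22 and 4.64 after MV. All 4 PCOS libraries exceeded the 8 others. The mean was 1.47-fold that of controls (log2 change 0.49, SE 0.10, adjusted p = 0.00737, limma), and after MV it was 0.590 times that of PCOS (log2 change -0.68, SE 0.13, adjusted p = 0.00738, limma), with both calls kept whichever of the 8 libraries was left out.

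CD68 sits in lysosomal membranes of phagocytes, and its gene lies on the minus strand of chromosome 10 (56268720 to 56270640). Cd68 measured 21.0, 21.2, 11.7 and 8.21 FPKM in the controls, 10.1, 11.5, 8.82 and 9.17 in the PCOS group, and 15.2, 19.7, 20.2 and 15.7 in the PCOS-MV group. Every PCOS-MV library exceeded every PCOS library, whereas the controls split into 2 high and 2 low libraries and overlapped both groups. The rise after MV was 0.77 on the log2 scale, 1.79-fold (SE 0.12, adjusted p = 0.00266, limma), and passed in all 8 fits that left out 1 library. In PCOS vs Control the log2 change was -0.51 (SE 0.27, adjusted p = 0.202, limma).

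Adgre1 and Cd68, both used as macrophage markers, did not move together. The ratio of their FPKM values, chosen after the values were seen and given without a test, was 0.327, 0.326, 0.702 and 0.822 in the controls, 1.098, 1.05, 1.11 and 1.01 in PCOS and 0.455, 0.361, 0.308 and 0.296 after MV. Csf1r to Cd68 ranged from 1.12 to 2.38 in controls, from 2.71 to 3.65 in PCOS and from 1.09 to 1.80 after MV. Both ratios were highest in the 4 PCOS libraries, and the PCOS-MV range of each overlapped the control range. By contrast, Adgre1 to Csf1r was 0.265 to 0.351 in controls and 0.276 to 0.387 in PCOS, and 0.188 to 0.284 after MV.

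**Figure D2:**
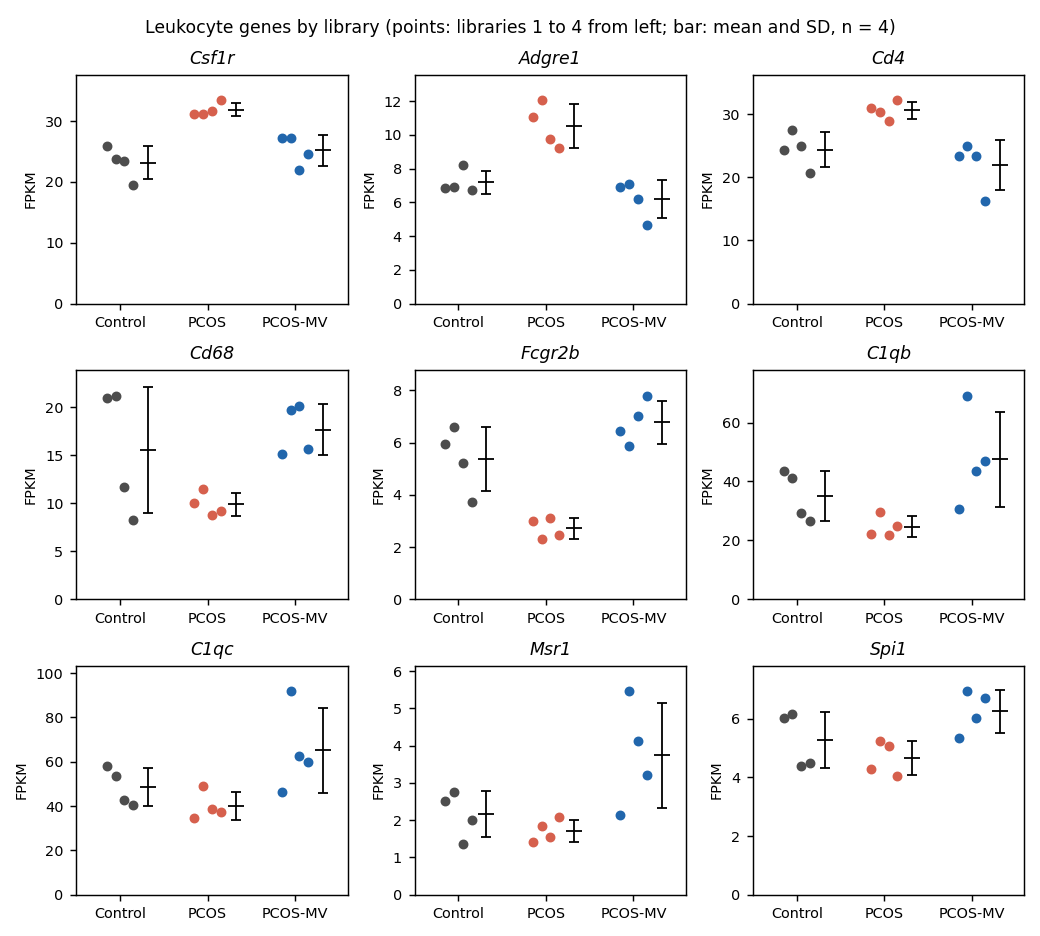
FPKM of 9 genes in each library, with the group mean and SD (n = 4) at the right of each group. Csf1r, Adgre1 and Cd4 have their 4 highest libraries in the PCOS group, Fcgr2b has its 4 lowest there, and Cd68, C1qb, C1qc, Msr1 and Spi1 are higher in PCOS-MV than in PCOS with control libraries that overlap both.

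Fc receptors come next. Fcgr2b, the inhibitory receptor for IgG on macrophages and B cells, was at 5.94, 6.61, 5.22 and 3.73 FPKM in the controls, 2.99, 2.31, 3.11 and 2.46 in PCOS and 6.43, 5.86, 7.01 and 7.801 after MV. The PCOS libraries were below all 8 others. Its fall in PCOS was the only one among the 36 genes that passed (log2 change -0.76, SE 0.16, adjusted p = 0.00733, limma), and its rise after MV had the lowest adjusted p (log2 change 1.07, 2.496-fold, SE 0.11, adjusted p = 0.00045, limma). Both calls were kept whichever library was left out. Fc gamma receptor genes share similar stretches, so how the authors' counting split reads between them is uncertain.

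The activating receptor gene Fcgr1a did not pass in either comparison, with group means of 6.06, 5.45 and 6.08 FPKM in control, PCOS and PCOS-MV ovaries. The adaptors that carry the signal of activating receptors did not pass either. Fcer1g, the common chain of Fc receptors, was at 27.3, 26.2, 14.3 and 15.0 FPKM in controls, 17.9, 22.3, 23.6 and 20.5 in PCOS and 16.4, 27.7, 25.6 and 20.5 after MV. Tyrobp (DAP12), the adaptor of TREM2, was at 28.1, 25.4, 18.0 and 15.4 in controls, 17.9, 24.4, 24.8 and 19.7 in PCOS and 21.8, 34.6, 33.2 and 27.0 after MV. The groups overlapped for both genes, and control replicates 1 and 2 were higher than control replicates 3 and 4. The log2 change of Tyrobp after MV was 0.40 (SE 0.16, adjusted p = 0.108, limma) and that of Fcer1g 0.07 (SE 0.16, adjusted p = 0.768, limma). The ratio of Tyrobp to Fcer1g was 0.957 to 1.09 in PCOS and 1.25 to 1.32 after MV, and 0.970 to 1.26 in controls; it was chosen after the values were seen and has no test.

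Complement C1q is built from 3 chains, and macrophages are its main source. C1qa measured 62.1, 57.7, 44.5 and 37.5 FPKM in controls, 34.5, 42.6, 37.5 and 33.3 in PCOS, and 41.1, 75.3, 59.2 and 47.7 after MV. C1qb measured 43.5, 41.3, 29.4 and 26.6, then 22.1, 29.6, 21.9 and 24.8, then 30.6, 69.2, 43.6 and 46.9 in the same groups. C1qc measured 58.0, 53.5, 42.8 and 40.4, then 34.8, 49.2, 38.8 and 37.5, then 46.3, 91.9, 62.6 and 60.0. In all 3 chains PCOS-MV replicate 2 was the highest library, and for C1qb alone the PCOS-MV and PCOS groups did not overlap. C1qb rose after MV by 0.88 on the log2 scale (SE 0.22, adjusted p = 0.0205, limma) and C1qc by 0.66 (SE 0.20, adjusted p = 0.0398, limma; exact two-sided permutation p = 0.0571), while C1qa missed the threshold (0.55, SE 0.18, adjusted p = 0.0507, limma). Without PCOS-MV replicate 2 the changes were 0.68 for C1qb and 0.48 for C1qc, and the call of C1qc was lost. C1qb passed in 5 of 8 fits that left out 1 library, and C1qc in 2.

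The 3 genes lie side by side on the minus strand of chromosome 5, C1qb from 155246447 to 155252003, C1qc from 155255005 to 155258392 and C1qa from 155261250 to 155264143 in the coordinates of the deposited table. Over all 12 libraries the ratio of C1qa to C1qc lay between 0.795 and 1.08 and that of C1qb to C1qc between 0.565 and 0.781. By group, C1qb to C1qc was 0.658 to 0.771 in controls, 0.565 to 0.6615 in PCOS and 0.660 to 0.781 after MV. C1qa to C1qc was 0.930 to 1.08 in controls, 0.866 to 0.9915 in PCOS and 0.795 to 0.947 after MV. These ratios have no test. In PCOS vs Control none of the 3 passed, with log2 changes of -0.42 for C1qa, -0.48 for C1qb and -0.27 for C1qc and adjusted p-values of 0.0877, 0.0712 and 0.203 in limma.

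Of the scavenger and lectin receptors, Msr1, which takes up modified lipoproteins, was at 2.52, 2.75, 1.35 and 2.01 FPKM in controls, 1.41, 1.84, 1.54 and 2.08 in PCOS and 2.14, 5.46, 4.13 and 3.21 after MV. All PCOS-MV libraries were above the PCOS libraries, the nearest by little (2.14 against 2.08). The rise after MV was 0.76 (SE 0.21, adjusted p = 0.0281, limma), and it passed in 3 of 8 fits that left out 1 library. Mrc1, the mannose receptor, Clec10a, a galactose-binding lectin, and Clec4a2, an inhibitory lectin of dendritic cells and macrophages, did not pass in either comparison; Clec4a2 came nearest, at -0.53 in PCOS vs Control (SE 0.18, adjusted p = 0.0589, limma).

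Cd163, the receptor for haemoglobin bound to haptoglobin, averaged 4.61 FPKM (SD 0.381, n = 4) in controls, 6.54 (SD 1.61) in PCOS and 7.95 (SD 2.31) after MV. It passed in neither main comparison, with log2 changes of 0.40 (adjusted p = 0.0794, limma) and 0.24 (adjusted p = 0.421, limma). It was the only one of the 36 genes whose PCOS-MV libraries, 6.10 to 11.3 FPKM, all lay above the control libraries, 4.33 to 5.17.

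Of the regulators, Spi1 was at 6.02, 6.15, 4.40 and 4.48 FPKM in controls, 4.29, 5.25, 5.08 and 4.06 in PCOS, and 5.33, 6.95, 6.02 and 6.73 after MV. The PCOS-MV libraries lay just above the PCOS libraries, 5.33 against 5.25 at the nearest. Spi1 rose after MV by 0.36 (SE 0.11, adjusted p = 0.0411, limma) and passed in 2 of 8 fits that left out 1 library. Irf8, which acts with PU.1 in monocytes and dendritic cells, was at 9.40 to 10.3 FPKM in controls, 10.3 to 13.7 in PCOS and 8.92 to 13.3 after MV. Its rise in PCOS was 0.30 (SE 0.095, adjusted p = 0.0448, limma); the groups overlapped (exact two-sided permutation p = 0.0571), and only 1 of 8 fits that left out 1 library kept the call.

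The other myeloid genes did not pass in either comparison. Cybb, Cyba, Ncf1 and Ncf4 encode parts of the phagocyte NADPH oxidase, and their log2 changes were -0.17 to 0.23 in PCOS vs Control and -0.03 to 0.40 in PCOS-MV vs PCOS. Lyz2, Ctss, Cd14, a receptor for bacterial lipopolysaccharide, and Aif1 (IBA1) changed by -0.16 to 0.28 and by -0.13 to 0.34. Over the 25 myeloid genes the counts were 3 higher and 1 lower in PCOS vs Control, 16.0% beside 27.4% of all genes, with a median of -0.10. After MV they were 6 higher and 2 lower, 32% beside 25.7% of all genes, with a median of 0.14. Without Control replicate 4, the myeloid and pan-leukocyte genes together gave 2 higher and 4 lower in PCOS vs Control, in place of 3 and 1. The direction of the fitted change was upward in 11 of the 25 in the first comparison and in 19 of the 25 in the second. The medians of all genes tested were -0.03 and 0.03.

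Summed over the 25 myeloid genes, the libraries held 654.1, 607.5, 494.0 and 458.2 FPKM in the controls, 540.9, 590.1, 571.0 and 516.6 in PCOS and 570.9, 839.6, 617.5 and 601.7 after MV. The groups overlapped in each comparison, and PCOS-MV replicate 2 was the highest library.

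No pan-leukocyte gene passed in either comparison in limma (1 and 3 of the 5 tested at an unadjusted p under 0.05). Ptprc, the CD45 phosphatase of white blood cells, was at 10.5, 9.21, 8.01 and 9.33 FPKM in controls, 5.02, 10.1, 10.96 and 8.61 in PCOS and 8.05, 13.6, 8.67 and 9.24 after MV. The groups overlapped, and PCOS replicate 1 was the lowest library. Its log2 changes were -0.13 (SE 0.20, adjusted p = 0.685, limma) and 0.19 (SE 0.23, adjusted p = 0.587, limma). Laptm5, a lysosomal protein of blood cells, was at 19.0 to 21.5 FPKM in PCOS and 21.9 to 27.2 after MV, which did not overlap, but the change of 0.20 missed the threshold (SE 0.087, adjusted p = 0.121, limma). Cd53, the actin-bundling gene Lcp1 and the actin-binding gene Coro1a ranged from -0.18 to 0.43 in PCOS vs Control and from -0.08 to 0.43 after MV. The medians of the 5 tested genes were -0.13 and 0.20.

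**Figure D3:**
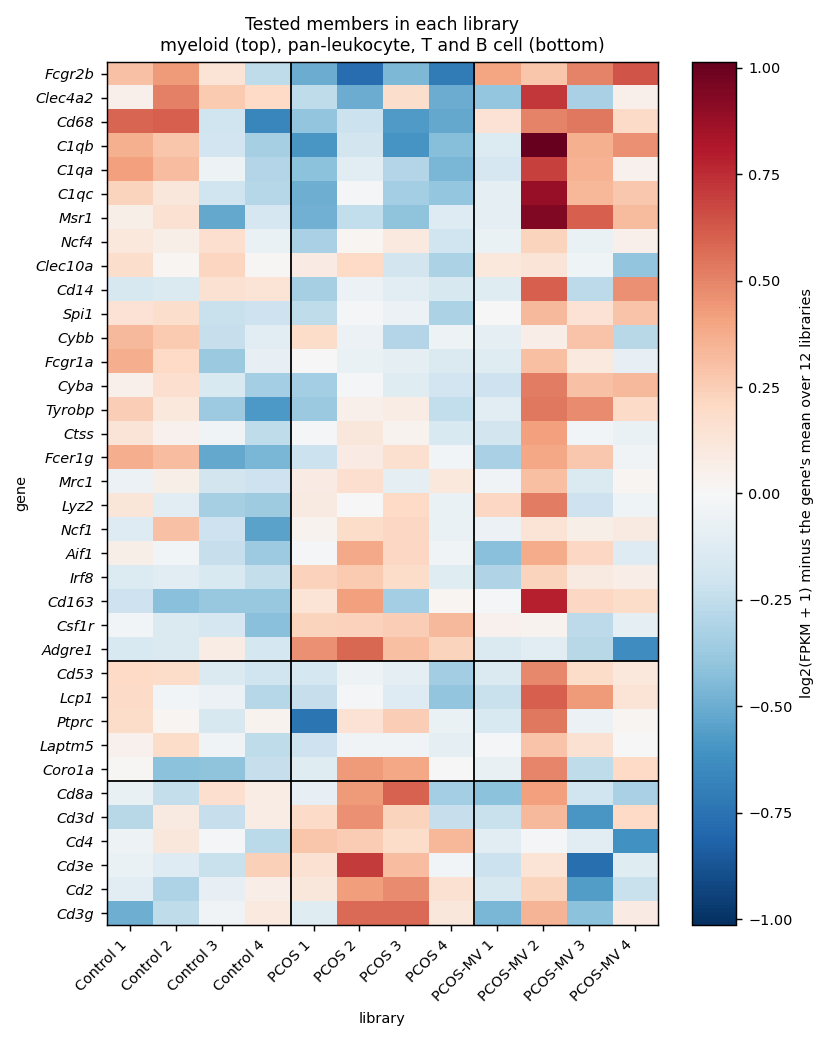
Heat map of log2(FPKM + 1) minus the mean of each gene over the 12 libraries, with the 36 tested genes as rows (myeloid, pan-leukocyte, then T and B cell) and the libraries as columns; red is above and blue below the gene's mean. PCOS-MV replicate 2 is red for most genes, control replicates 1 and 2 are above control replicates 3 and 4 for genes such as Cd68 and Fcer1g, and Csf1r and Adgre1 are red in all 4 PCOS libraries.

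The 6 tested genes of the T and B cell class held no B cell gene, since Cd79b was not tested. All 6 had higher means in PCOS than in controls, with a median log2 change of 0.33. After MV all 6 had lower means than in PCOS, with a median of -0.44. Only Cd4 and Cd2 passed in the first comparison, 33.3% beside 27.4% of all genes, and Cd4 alone in the second, 16.7% beside 25.7%. All but Cd4 were at low values in whole ovary, where the SE of the change was 0.13 to 0.25. Further T cell genes, given below, did not share a common direction in PCOS vs Control.

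Cd4 was at 24.3, 27.5, 24.9 and 20.7 FPKM in controls, 30.9, 30.4, 28.9 and 32.2 in PCOS and 23.3, 25.0, 23.4 and 16.2 after MV. All PCOS libraries were above all others. The rise in PCOS was 0.32 (SE 0.090, adjusted p = 0.0277, limma), and the difference after MV was -0.48 (SE 0.13, adjusted p = 0.0255, limma), each kept in 5 of 8 fits that left out 1 library. Cd4 was 7.26 to 26.9 times as high as Cd3e and 0.658 to 1.16 times as high as Csf1r in the 12 libraries.

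The other tested genes of the T and B cell class were lower and more variable. Cd2, which helps T and natural killer cells to adhere, was at 1.77, 1.42, 1.83 and 2.14 FPKM in controls, 2.24, 3.01, 3.19 and 2.33 in PCOS and 1.67, 2.51, 1.02 and 1.57 after MV. The PCOS libraries were above the controls and overlapped those after MV. The rise was 0.40 (SE 0.13, adjusted p = 0.0481, limma) and was kept in 2 of 8 fits that left out 1 library. Cd3e, a signalling chain of the T cell receptor, was at 2.04, 1.91, 1.72 and 2.76 in controls, 2.53, 4.19, 2.95 and 2.12 in PCOS and 1.74, 2.5, 0.867 and 1.92 after MV. The groups overlapped throughout. The log2 changes of Cd3e were 0.33 (SE 0.17, adjusted p = 0.193, limma) and -0.53 (SE 0.22, adjusted p = 0.11, limma).

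Cd3d, Cd3g and Cd8a did not pass, with log2 changes of 0.17 to 0.46 in PCOS vs Control and -0.40 to -0.23 after MV. Cd79b, the measured chain of the B cell receptor, was at 0.0924, 0.222, 0.416 and 0.175 FPKM in controls, 0.0781, 0.168, 0.0395 and 0.114 in PCOS and 0.0345, 0.0939, 0.0785 and 0.195 after MV. At these values the groups overlapped and no difference was detectable.

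**Figure D4:**
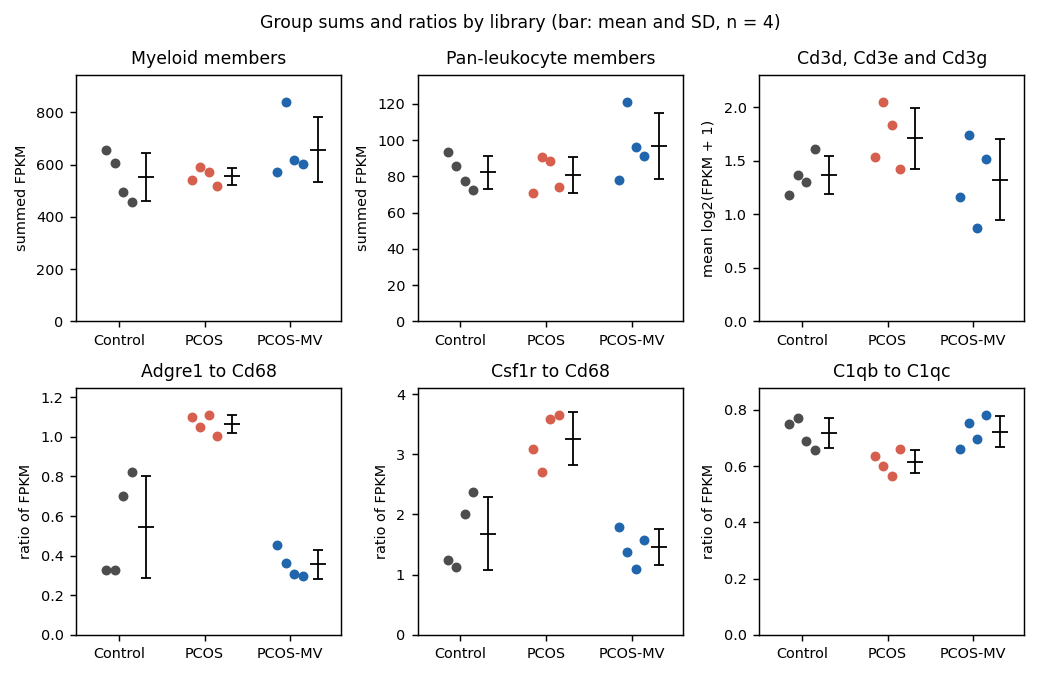
Summed FPKM of the myeloid and the pan-leukocyte genes, mean log2(FPKM + 1) of the 3 CD3 genes, and ratios of FPKM for 3 pairs of macrophage genes, by library, with group mean and SD (n = 4). The sums and the CD3 mean overlap between groups, whereas Adgre1 to Cd68 is 1.01 to 1.11 in PCOS, above every library of the other groups.

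Between PCOS-MV and control ovaries no member passed the test, and 1 of the 13430 genes did (0.00745%). At an unadjusted p under 0.05, 2 of the 36 members and 8.5% of all genes were counted in limma. These 2 were Cd163 (log2 change 0.64, SE 0.16, adjusted p = 0.478, limma; exact two-sided permutation p = 0.0286, the smallest that 4 libraries against 4 can give) and Msr1 (log2 change 0.56, SE 0.24, adjusted p = 0.58, limma). Groups that did not overlap with PCOS-MV higher were found for 1 member and for 2.81% of all genes. The log2 changes of Csf1r, Adgre1, Cd68, Fcgr2b and Cd4 were 0.12, -0.19, 0.26, 0.30 and -0.15, with standard errors of 0.11, 0.13, 0.28, 0.16 and 0.14. A p-value above the threshold does not show that these groups were alike.

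Counted by overlap instead of by the adjusted p, 4 members in PCOS vs Control had all PCOS libraries above all controls and 1 had them all below, beside 13.8% and 17.2% of all genes. In PCOS-MV vs PCOS, 6 members were higher and 3 lower without overlap, beside 16.7% and 13.3%.

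Further genes of macrophages, chosen as a second list, are given for comparison. Of 21 tested, 3 fell and none rose in PCOS (median log2 change -0.13), and 6 rose and 1 fell after MV (median 0.27). These shares were 14.3% and 33.3%, beside 27.4% and 25.7% of all genes tested, which also stand beside the counts of the later lists. The largest changes were in Gpnmb, a glycoprotein of lysosomes and melanosomes, with means of 88.4 FPKM (SD 45.5) in controls, 25.5 (SD 5.55) in PCOS and 104 (SD 28.2) after MV, log2 changes of -1.63 and 1.97 (adjusted p = 0.00919 and 0.000479, limma). Slc11a1, a metal transporter of phagosomes, changed by -0.85 and 0.94 (adjusted p = 0.00905 and 0.0263, limma). Tlr4, the lipopolysaccharide receptor, changed by -0.50 and 0.36 (adjusted p = 0.0156 and 0.0203, limma). Summed, the listed genes of this group ran from 129.9 to 252.1 FPKM in controls, 107.3 to 118.6 in PCOS and 165.4 to 250.2 after MV. Without Gpnmb the sum was 79.9 to 116.2 FPKM in controls, 80.7 to 94.5 in PCOS and 87.6 to 131.2 after MV, and the groups overlapped.

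The growth factor for the receptor Csf1r is CSF1. Csf1 averaged 7.04 FPKM (SD 1.42, range 5.13 to 8.40) in controls, 11.3 (SD 0.564, range 10.7 to 11.9) in PCOS and 6.86 (SD 0.517, range 6.15 to 7.38) after MV. Its log2 changes of 0.62 (SE 0.13, adjusted p = 0.00786, limma) and -0.64 (SE 0.076, adjusted p = 0.000747, limma) both passed, with the 4 PCOS libraries above the 8 others. Il34, the second ligand of that receptor, did not pass (log2 changes -0.36 and 0.24, adjusted p = 0.065 and 0.0984, limma). Its direction was opposite to that of Csf1. The PCOS libraries, at 1.03 to 1.41 FPKM, lay below the controls at 1.54 to 2.33 and the PCOS-MV libraries at 1.43 to 1.85.

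Among 15 tested genes of immunoreceptor signalling in leukocytes, none passed in PCOS vs Control in limma (2 at an unadjusted p under 0.05), and after MV 2 rose and 1 fell: Syk, the kinase that binds phosphorylated Fcer1g and Tyrobp (log2 change 0.49, adjusted p = 0.0165, limma), the exchange factor gene Vav1 (0.38, adjusted p = 0.0449, limma) and Fyb1, an adaptor of T cells and platelets (-0.50, adjusted p = 0.0218, limma). Of 9 further T cell genes 1 rose in PCOS and 2 fell after MV. Their fitted changes in PCOS vs Control were upward in 5 and downward in 4, with a median of 0.01. After MV they were upward in 2 and downward in 7, with a median of -0.15. Il2rb, a receptor chain for interleukins of T and natural killer cells, went from 2.25 FPKM (SD 0.387) in controls to 8.29 (SD 1.77) in PCOS and 2.94 (SD 0.285) after MV, and its log2 changes of 1.5 and -1.22 had adjusted p-values of 0.000251 and 0.000761 in limma. The T cell kinase gene Lck fell by 0.49 after MV (adjusted p = 0.0492, limma). Of 11 B and plasma cell genes only Jchain and Tnfrsf17 reached the level tested. Jchain fell by 2.29 in PCOS (adjusted p = 0.0275, limma), a value that includes the 95.9 FPKM of control replicate 3, and rose by 0.67 after MV (adjusted p = 0.0106, limma).

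Genes of activation were mostly too low to be tested. Of the pro-inflammatory list, Il1b and Nlrp3 were tested and passed in neither comparison in limma (0 and 1 at an unadjusted p under 0.05). Of the list for alternative activation, 3 were tested and each passed in both comparisons, not in a common direction. The cytokine gene Tgfb1 changed by -0.73 and 0.94 (adjusted p = 0.00293 and 0.00452, limma), the interleukin-1 receptor antagonist gene Il1rn by -1.52 and 1.43 (adjusted p = 0.0369 and 0.0476, limma) and the eosinophil chemokine gene Ccl24 by 1.22 and -1.71 (adjusted p = 0.00561 and 0.000163, limma). All 3 are also made by cells other than macrophages.

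Markers of other ovarian cell types also differed between the groups and are listed here with the same tests. Whether the numbers of these cells differed was not tested. Of 9 endothelial genes 8 fell and 1 rose in PCOS, and 5 rose after MV, and their sum was 149.8 to 186.8 FPKM in controls, 88.4 to 111.1 in PCOS and 127.9 to 179.7 after MV. Of 9 genes of the corpus luteum 5 fell and 3 rose in PCOS, and 3 rose and 2 fell after MV, with sums of 7411 to 8866, 2359 to 3946 and 4603 to 11100 FPKM. Theca genes rose in 5 and fell in 1 of 6 in PCOS and fell in 4 after MV, with sums of 169.2 to 230.1, 1779 to 3368 and 141.1 to 249.9. Of 10 granulosa genes 5 rose in PCOS and 4 fell after MV, with sums of 962.8 to 1337, 1554 to 2242 and 849.1 to 1464. Of the 9 adipocyte genes listed only 4 were tested, and of these all fell in PCOS and 1 rose after MV. Cidec reached the level tested only through the controls, so the filter favoured its fall in PCOS. Its means were 3.03 FPKM in controls, 0.109 in PCOS and 0.127 after MV. The 9 listed, untested ones included, had sums of 46.0 to 96.5, 25.6 to 33.7 and 25.7 to 37.0.

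Blood in the tissue was also read from its markers. Of 6 genes of red cells and platelets none passed in PCOS vs Control in limma (0 at an unadjusted p under 0.05) and 1, the haemoglobin gene Hba-a2, fell after MV by 1.36 (adjusted p = 0.00935, limma), and the sum of the list was 958.6 to 1488 FPKM in controls, 534.1 to 1430 in PCOS and 315.1 to 803.3 after MV. Neutrophil genes (2 tested) and eosinophil and mast cell genes (1 tested) passed in neither comparison in limma, with 0 at an unadjusted p under 0.05 in PCOS vs Control and 1, of the neutrophil list, after MV. The part of these other cell types in the changes of the leukocyte genes was not tested.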

How the data were processed

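RNA-seq of whole ovary was available for 12 libraries, 1 per rat, 4 in each group, grouped by their titles and treatments in the labels. The authors built libraries with an NEBNext Ultra RNA kit, filtered the reads and counted them per gene. The labels name STAR 2.5.1b and HTSeq 0.6.0 while the paper's methods name HISAT2 and featureCounts, so the tools behind the table are uncertain, and the genome build is not given in the sources used here. The deposited values are FPKM per library. The table also holds group means and the authors' own fold changes and p-values for 2 comparisons, which were not used. Columns named MG were taken as the PCOS-MV libraries, the only group left. A gene's values are repeated on its transcript lines (26928 lines, 19730 genes, 0 genes with differing lines), and 1 line per gene was kept. Depth is unknown, so precision rests on the 4 libraries a group.

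From the deposited FPKM, log2(FPKM + 1) was computed, and limma 3.58.1 (lmFit and eBayes with a trend, R 4.3.3) was run on pairs of groups without covariates over the 13430 genes averaging 1 FPKM or more, with Benjamini-Hochberg adjustment and a threshold of 0.05. The fit was tested on simulated data. For single members an exact two-sided permutation test was added, whose smallest p is 0.0286. Tables were made with Python 3.11.15 and pandas 2.3.3. The members and the other gene lists were chosen with earlier results of these data known. Values in every library were printed for 12 members chosen as examples of their class and for every member that passed in a main comparison without overlap of the groups; other members are given by range and count, and other lists by count with at most 3 examples of the largest change among genes that passed, except Csf1, Il34, Il1b, Nlrp3, Tnfrsf17 and Lcn2, which were named after their values were seen. An example that this rule would name is not reported here. Protein sequences were not used here. The replicate number was not treated as a pairing. The alternatives tried were the pseudocount, the filter, 1 model for all libraries, the replicate block, a 2-fold threshold, rescaling by the median ratio, no trend, and each library left out in turn.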

Additional observations from a re-analysis of the deposited data

Results flagged for a closer look

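In 2 groups of 4 libraries, 1 library lay far from the other 3 by Dixon's test. Adgre1 was at 8.219 FPKM in control replicate 3, while the other controls lay between 6.751 and 6.914. Cd163 was at 5.173 FPKM in control replicate 1, while the other controls lay between 4.331 and 4.469. In all, 108 groups of 4 (36 genes in 3 groups) were examined, and chance gives such a library in about 1 group in 20, or 5.4 groups. For Adgre1, control replicate 3 was still below every PCOS library (9.23 FPKM or more).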

How the results depend on the processing

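The 15 called member values were set against the alternatives, which gave 251 values in all, with the same fits serving all members. None changed direction, but the 2-fold threshold keeps the main fit and could not change it. Of the 251 values, 181 stayed called and 70 did not. Fcgr2b after MV stayed called in all of its fits, Adgre1 in both comparisons, Cd68 after MV, and Csf1r and Fcgr2b in PCOS vs Control in all except the 2-fold threshold, and Irf8, Spi1 and Cd2 lost the call in most. With a change of at least 1 on the log2 scale required, 0 members were called in PCOS vs Control (0 myeloid and pan-leukocyte, 0 T and B cell) and 1 in PCOS-MV vs PCOS (1 and 0), and 907 and 751 genes in all. One model for all 12 libraries called 3 members in PCOS vs Control, 0 of them T and B cell. The replicate block called 3 members in PCOS vs Control (2 higher, 1 lower), 0 of them T and B cell, and 10 in PCOS-MV vs PCOS (8 higher, 2 lower), 0 of them T and B cell. Cd4 was called in neither comparison under the block (adjusted p = 0.0714 and 0.0514, limma), nor were Irf8 and Cd2 in the first or Spi1 in the second. Deviations of same-numbered libraries from their group means correlated with r between -0.033 and 0.024 when PCOS was set against Control, between 0.035 and 0.172 for MV against PCOS, and between -0.053 and 0.216 for MV against Control, not above 0.1 for every pair, so the numbers were not read as pairs. Without a filter on low values 1 T and B cell member was called in PCOS vs Control and 5 myeloid and pan-leukocyte members in PCOS-MV vs PCOS, and with a mean of at least 5 FPKM 1 T and B cell member in PCOS vs Control, where Cd2 is no longer tested. Leaving out 1 library gave 3 to 8 members in PCOS vs Control (T and B cell 0 to 2) and 4 to 14 in PCOS-MV vs PCOS (myeloid and pan-leukocyte 4 to 13, T and B cell 0 to 2). The cause of these shifts was not tested, except that fits without a library have fewer samples. Depth is unknown, and Cd52 and Cd79b are too low for a difference to be detectable.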
